A study of Mus musculus with 4 samples.

Results

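The transcripts of the EGFR family, its receptors and its ligands apart, were read on arrays of the mouse mammary carcinoma line 4T1Br with or without a hairpin against YTHDF3. The 10 genes were Egfr, Erbb2, Erbb3 and Erbb4 for the receptors and Areg, Ereg, Hbegf, Tgfa, Btc and Epgn for the ligands, and each was taken through the probe sets that the platform annotation gives that symbol alone. Of these 10, 9 were found, on 10 of 41345 probe sets, against 22180 genes named in all. Areg had no probe set under that rule and was not analysed here. All 4 samples were cultures of 4T1Br, a brain-seeking derivative of 4T1, selected with puromycin after lentiviral transduction: 2 carried shControl and 2 carried shYTHDF3. The sample titles name the line 4T1, and the cell line label names it 4T1Br. The labels give no hairpin sequence, say nothing of clones, and do not tie the arrays to separate cultures. The p-values rest on the spread among these 4 samples alone, and that spread may be technical. The comparison addressed how the transcript levels of the family differed between control and knockdown cells; an array reads RNA abundance, not translation, protein or receptor activity.

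EGFR family receptors are tyrosine kinases at the cell surface that pair with each other when a ligand binds and then switch on the RAS-MAP kinase, PI3 kinase-AKT and STAT pathways. ErbB2 has no known soluble ligand and serves as a partner of the others, while ErbB3 has little kinase activity of its own and depends on its partners. The ligands are made as membrane-anchored precursors that ADAM proteases cut free. In mammary epithelium the family drives growth of the ducts, and it is a frequent driver of breast cancer.

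The deposited values are log2 expression values, 1 per probe set and array. A gene was tested where its mean over the 4 arrays was above 4.28, the level under which 95% of 1108 olfactory receptor probe sets lay; this is called the background level below. This left 13056 genes, and 7 of the 9 family genes found were among them. A difference is the mean of shYTHDF3 minus the mean of shControl on the log2 scale, with the standard error (SE), the 95% interval and the p-value of limma, adjusted over all genes tested by the Benjamini-Hochberg method, with 0.05 as threshold. Values of different probe sets were set against each other only for the filters, to choose a gene's brightest probe set and in a marker mean. Otherwise they were not, since their probes differ in response.

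The targeted transcript, Ythdf3, was at 8.98 and 8.81 with shControl and at 8.21 and 8.16 with shYTHDF3, a fall of 0.71 (SE 0.10, limma adjusted p = 0.0355). Keratin genes of mammary epithelium were measured well above background: Krt8 lay between 10.04 and 10.45, Krt18 between 10.45 and 11.13 and Krt19 between 6.13 and 6.86 over the 4 arrays. Their differences of 0.31, 0.57 and -0.53 went both ways and did not pass (limma adjusted p = 0.151, 0.0527 and 0.0816). Epcam, an epithelial adhesion gene, lay below background (3.80 to 4.05), and Cdh1, the E-cadherin gene, lay close to it (4.37 to 4.61). Of 7 leukocyte markers found, 6 were below background, while Cd68 read 7.30 and 7.57 with shControl and 6.62 and 6.82 with shYTHDF3 and missed the threshold (limma adjusted p = 0.0547). Of 6 neural and glial markers, 4 were below background and neither of the others passed. Among 12 fibroblast and vessel markers 8 were above background, while Lum, Fap, Pecam1 and Kdr were below it. Of the 8, Dcn fell by 2.65 and Pdgfra by 0.61 (limma adjusted p = 0.00474 and 0.0471). That was a share of 25% called, beside 2.73% of all genes tested. The other 6 did not pass and lay between -0.44 (Thy1) and 0.21 (Pdgfrb), 3 of them higher and 3 lower, and the median of the 8 was -0.05. The mean log2 level of all 12 markers, which Dcn weighs on most, was 5.10 and 5.23 in shControl and 4.92 and 4.89 in shYTHDF3. The part of other cells in the changes of the family was not tested.

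Of the 3 receptors tested, 1 fell and 2 did not pass. Of the 4 ligands tested, none passed by limma, and 1 was lower at an unadjusted p under 0.05, as were 10.4% of all genes tested. The gene that fell was Egfr, at 61.4% of its shControl level. Over all 13056 genes tested, 1.45% fell and 1.28% rose. The median difference was 0.10 for the 3 receptors and -0.11 for the 4 ligands, beside 0.01 for all genes tested. The receptor median is the difference of Erbb2 alone, which lies between those of Egfr (-0.70) and Erbb3 (0.70). With 1 array left out, the receptor median ran from 0.07 to 0.14 and the ligand median from -0.19 to -0.03. The groups did not overlap in all 3 receptors tested and in 2 of the 4 ligands tested, but 54% of all genes tested show such a separation with these 4 arrays.

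**Figure D1:**
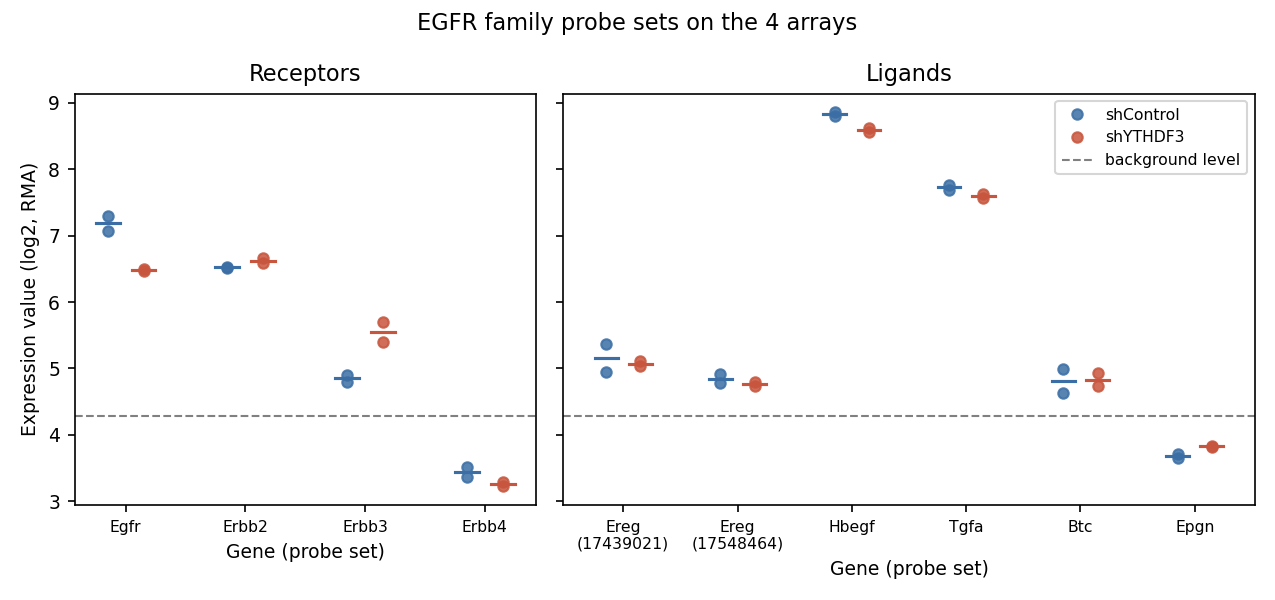
Log2 expression of each family probe set (vertical axis) on the 2 shControl and 2 shYTHDF3 arrays (points, with a bar at each group mean), receptors on the left and ligands on the right; the dashed line is the background level of 4.28. Egfr sits lower on both shYTHDF3 arrays and Erbb3 higher, the ligand points of the groups lie close together, and Erbb4 and Epgn lie under the line on every array.

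Egfr, the receptor for EGF and TGF-alpha among others, read 7.30 and 7.07 with shControl and 6.47 and 6.49 with shYTHDF3. Both shYTHDF3 values were lower than both shControl values, and the shYTHDF3 arrays were closer to each other than the shControl arrays. The group means were 7.19 ± 0.16 and 6.48 ± 0.01 (SD, n = 2 each). The fall was 0.70 (SE 0.11, 95% interval -0.98 to -0.43, limma adjusted p = 0.0417). Among the 13056 genes tested it ranked 265 by p-value and 142 by depth of fall. With 1 array left out the difference lay between -0.82 and -0.59 and no longer passed (limma adjusted p from 0.162 to 0.198); such a fit has fewer residual degrees of freedom and assumes that the lone array varies like the other group. It also missed the threshold when genes under the background level were tested too (limma adjusted p = 0.0979).

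Erbb3, whose product binds neuregulins, lay on the other side. It read 4.80 and 4.90 with shControl and 5.40 and 5.70 with shYTHDF3, all above the background level but not far from it. Both shYTHDF3 values were the higher ones. The difference was 0.70 (SE 0.13, 95% interval 0.38 to 1.02) and missed the threshold (limma adjusted p = 0.0544). It did pass with the filter at the median probe set (limma adjusted p = 0.0471) and at 1 common median of the arrays (0.0456). With an intensity trend in the variance model it passed too (limma adjusted p = 0.0250, or 0.0232 with robust estimation). Under these settings 488, 408, 1426 and 1465 genes passed in all, beside 356 in the setting of the report. Erbb3 missed the threshold in every other alternative. Its limma adjusted p was 0.122 without the filter and 0.0798 with the replicate number as a block. With 1 array left out the difference lay between 0.54 and 0.85.

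**Figure D2:**
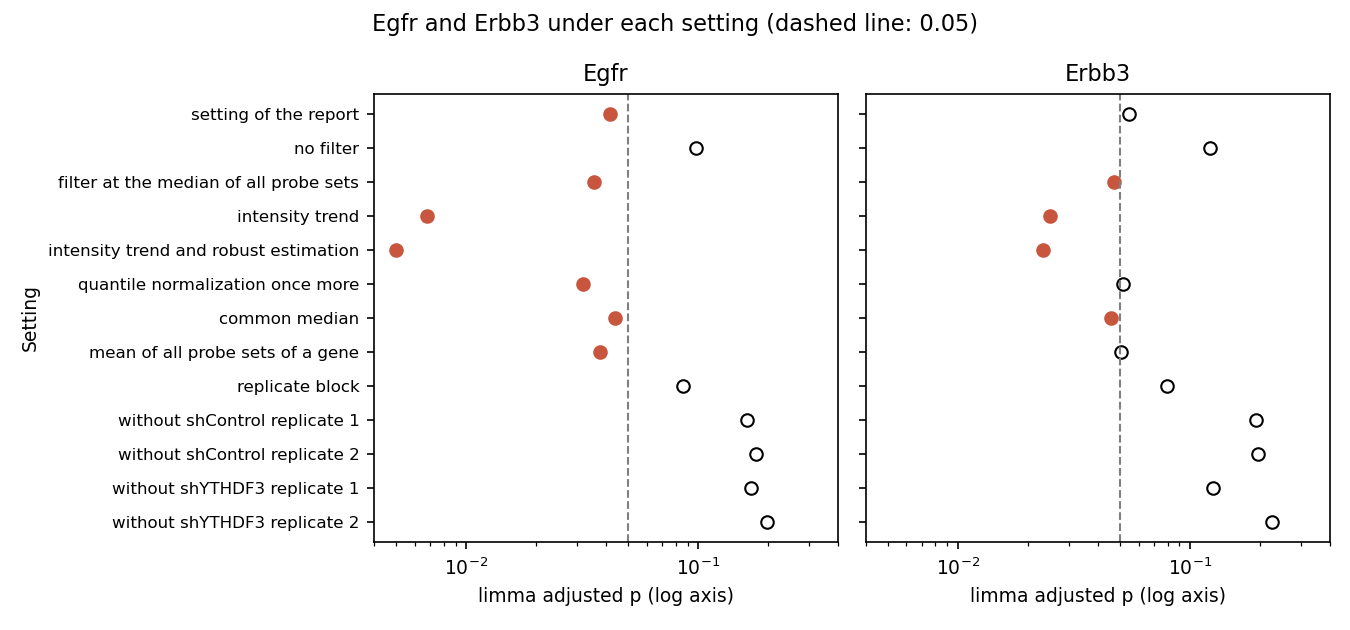
Limma adjusted p (horizontal axis, log scale) of the Egfr difference on the left and the Erbb3 difference on the right under the setting of the report and 12 alternatives (vertical axis); filled points lie under the dashed line at 0.05. Egfr is under the line in 7 of the 13 settings and Erbb3 in 4, and neither is with any 1 array left out.

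Erbb2, the partner receptor known as HER2 in breast cancer, read 6.53 and 6.51 with shControl and 6.66 and 6.59 with shYTHDF3. Its difference of 0.10 (SE 0.09) did not pass (limma adjusted p = 0.550), although the groups did not overlap. Its 95% interval of -0.12 to 0.33 does not include a fall as deep as that of Egfr. Erbb4, a neuregulin receptor, was below background on every array, with 3.36 and 3.52 in shControl and 3.28 and 3.22 in shYTHDF3, and was not tested.

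The sequence before the annotated start is shown for Egfr, which fell, and for Erbb2, which did not pass, because these are the receptors with values well above background. Both windows hold the 250 bases before the start in RefSeq's GRCm38.p6 annotation, on the plus strand, at chr11:16751953-16752202 for Egfr and chr11:98412234-98412483 for Erbb2. Capitals mark a match on either strand to GGGCGG, the GC box that factors such as Sp1 bind, or to the box of the letters CCAAT.
Egfr: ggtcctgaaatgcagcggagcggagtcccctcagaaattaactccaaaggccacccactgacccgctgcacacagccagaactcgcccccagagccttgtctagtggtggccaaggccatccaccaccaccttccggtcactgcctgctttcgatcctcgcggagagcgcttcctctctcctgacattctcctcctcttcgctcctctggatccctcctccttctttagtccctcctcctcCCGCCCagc
Erbb2: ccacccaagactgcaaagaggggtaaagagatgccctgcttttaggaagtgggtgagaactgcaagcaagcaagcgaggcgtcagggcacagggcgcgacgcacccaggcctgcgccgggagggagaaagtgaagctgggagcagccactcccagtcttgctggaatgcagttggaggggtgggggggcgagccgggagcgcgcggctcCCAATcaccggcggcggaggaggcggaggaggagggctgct
The Egfr window held 1 GC box, on the opposite strand and starting 9 bases before the start, and no CCAAT box. The Erbb2 window held 1 CCAAT box, starting 41 bases before the start, and no GC box. Neither held the TATA box TATAAA on either strand. Nor did either hold the AP-1 site spelled TGACTCA, the cyclic AMP response element spelled TGACGTCA or the STAT site spelled TTCNNNGAA, again on both strands. Of 32851 such windows of 250 bases, 32.7% held the GC box, 33.8% the CCAAT box, 12.4% the TATA box, 7.02% the STAT site, 4.46% the AP-1 site and 1.55% the cyclic AMP response element. GC content was 60.8% for Egfr and 66% for Erbb2, beside a median of 52.4% over all windows. These matches describe the letters only; the arrays do not measure binding.

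Hbegf, the heparin-binding ligand of EGFR and ErbB4, read 8.86 and 8.81 with shControl and 8.62 and 8.57 with shYTHDF3. Both shYTHDF3 values were the lower ones, and replicates differed less than the groups did. The difference of -0.24 (SE 0.09, 95% interval -0.46 to -0.01) had an unadjusted limma p of 0.0413 and did not pass after adjustment (limma adjusted p = 0.202). The other ligand measured well above background was Tgfa, which encodes TGF-alpha, a ligand of EGFR. It read 7.77 and 7.69 with shControl and 7.57 and 7.62 with shYTHDF3. Those groups did not overlap either, and the difference of -0.13 (SE 0.09, 95% interval -0.36 to 0.09) did not pass (limma adjusted p = 0.440).

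Ereg, the epiregulin gene, had 2 probe sets, both above background. On the brighter, it read 4.95 and 5.37 with shControl and 5.03 and 5.11 with shYTHDF3, so both shYTHDF3 values fell between the shControl values. Its difference was -0.09 (SE 0.15, 95% interval -0.47 to 0.29, limma adjusted p = 0.775), and 0.12 without shControl 2. On the dimmer it read 4.92 and 4.77 with shControl and 4.79 and 4.73 with shYTHDF3, again with overlapping groups and a difference of -0.09. Btc, the betacellulin gene, read 4.63 and 4.99 with shControl and 4.73 and 4.93 with shYTHDF3. Its groups overlapped as well, with a difference of 0.02 (SE 0.15, 95% interval -0.35 to 0.39, limma adjusted p = 0.962). The Btc difference turned to -0.16 without shControl 1 and to -0.08 without shYTHDF3 2. Epgn, the epigen gene, was below background on every array, with 3.65 and 3.71 in shControl and 3.82 and 3.84 in shYTHDF3, and was not tested. Epgn, Ereg, Areg and Btc are direct neighbours among the protein-coding genes of chromosome 5 in RefSeq. None of the 2 tested from that cluster, Ereg and Btc, passed by limma, and neither had an unadjusted p under 0.05 (0.578 and 0.911).

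The remaining ligands of the receptors were read for comparison. Nrg1 encodes neuregulin-1, a ligand of ErbB3 and ErbB4. It read 7.52 and 7.49 with shControl and 7.03 and 6.76 with shYTHDF3, lower on both shYTHDF3 arrays. The difference was -0.61 (SE 0.12, 95% interval -0.91 to -0.32) and did not pass (limma adjusted p = 0.0607). Nrg2, which encodes another ligand of ErbB3 and ErbB4, read 5.32 and 5.67 with shControl and 6.46 and 6.09 with shYTHDF3, higher on both shYTHDF3 arrays. Its difference was 0.78 (SE 0.18, 95% interval 0.35 to 1.21) and did not pass (limma adjusted p = 0.0788). Both passed with an intensity trend in the variance model (limma adjusted p = 0.0118 for Nrg1 and 0.0230 for Nrg2), under which 10.9% of all genes tested passed. Egf, on its own probe set, lay between 3.78 and 4.25, Nrg3 between 3.82 and 4.21 and Nrg4 between 4.14 and 4.28. All 3 were below background on every array and were not tested.

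**Figure D3:**
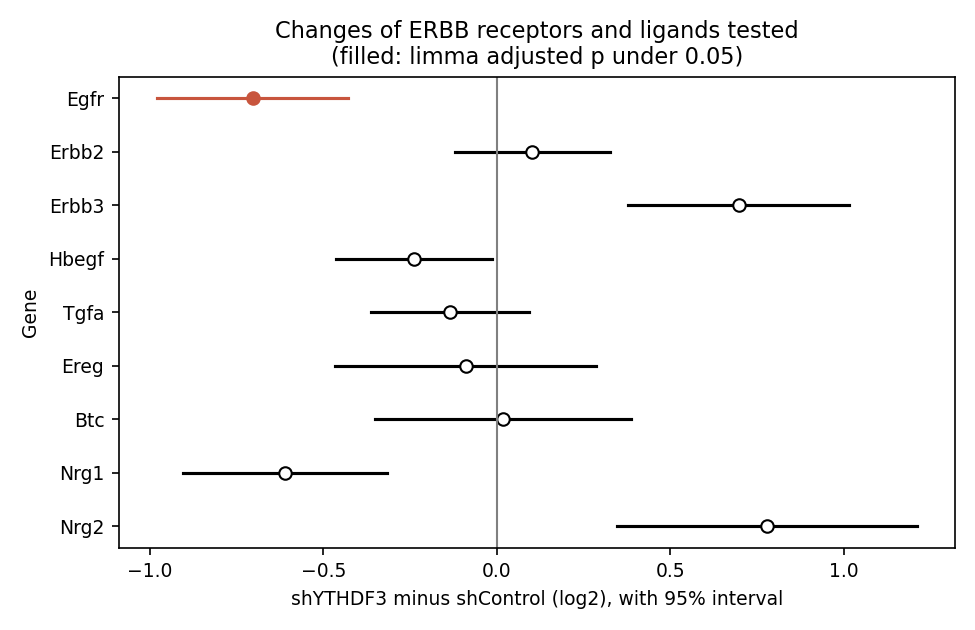
Difference of group means on the log2 scale (horizontal axis, shYTHDF3 minus shControl) with its 95% interval for the 7 family genes tested and for Nrg1 and Nrg2 (vertical axis); the filled point passed limma at an adjusted p under 0.05. Egfr, Nrg1 and, narrowly, Hbegf lie on the lower side with intervals clear of 0, and Erbb3 and Nrg2 on the higher side. Erbb2 and the ligand genes Tgfa, Ereg and Btc have intervals that include 0.

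Release of the ligands from the membrane needs proteases and their rhomboid-like partners. Of 11 genes of ligand shedding tested, 1 fell and 10 did not pass, a share of 9.09% fallen beside 1.45% of all genes tested. Their median difference was -0.01, which ran from -0.12 to 0.0029 with 1 array left out. The gene that fell was Adam19, a membrane metalloprotease, from 5.22 and 5.20 to 4.61 and 4.63, by 0.59 (SE 0.09, limma adjusted p = 0.0381). Its second probe set was below background, with a difference of 0.09. Adam17, the main sheddase of TGF-alpha and HB-EGF, differed by -0.01 (limma adjusted p = 0.982), and Adam10, the sheddase of betacellulin, by 0.16 (limma adjusted p = 0.375).

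Among adaptors and kinases downstream of the receptors, 1 of 22 fell and 21 did not pass. That was a share of 4.55% fallen, beside 1.45% of all genes tested. The median was -0.06 (-0.08 to 0.0051 with 1 array left out). Other genes of that list were not analysed here. Stat3, a transcription factor that receptor kinases and JAKs switch on, fell by 0.62, from 9.87 and 9.94 to 9.24 and 9.32 (SE 0.09, limma adjusted p = 0.0381). Among inhibitors of the receptors and of RAS signalling, 1 of 18 fell (5.56%) and 17 did not pass. The median was -0.10 (-0.14 to -0.05 with 1 array left out). The gene that fell was Cblb, a ubiquitin ligase that marks active receptors for removal. It stood at 7.51 and 7.34 with shControl and at 6.71 and 6.51 with shYTHDF3, a fall of 0.81 (SE 0.12, limma adjusted p = 0.0360). Its paralog Cbl differed by -0.34 (limma adjusted p = 0.112), and Errfi1, a direct inhibitor of the EGFR kinase, by -0.31 (limma adjusted p = 0.153). Ptprk, of the same list, differed by -0.46 (limma adjusted p = 0.0653). Cbl, Errfi1 and Ptprk were picked after their values were seen. Of all 18 inhibitors, 7 were higher and 11 lower, the highest being Spry2 at 0.14 (limma adjusted p = 0.437). At an unadjusted limma p under 0.05, 4 were lower and 0 higher, beside 10.4% lower and 12.2% higher of all genes tested. Of 17 genes of receptor endocytosis and sorting none passed by limma, with 1 higher at an unadjusted p under 0.05, beside 12.2% of all genes tested. Their median was 0.02, and -0.04 to 0.04 with 1 array left out. The largest absolute differences there were those of Stam and Stam2, parts of the endosomal sorting machinery, at -0.30 and -0.23; the Stam difference was -0.13 without shControl 1 and -0.46 without shControl 2.

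Transcripts that EGFR signalling is known to induce moved both ways: 1 of 24 rose, 3 fell and 20 did not pass, a share of 16.7% called beside 2.73% of all genes tested. Fosl1 was not analysed here. Egr1, an immediate early transcription factor, rose by 1.34, from 6.22 and 5.82 to 7.23 and 7.48 (SE 0.16, limma adjusted p = 0.0286). Dusp1, a phosphatase that switches off MAP kinases, fell by 1.33, from 8.08 and 8.39 to 6.93 and 6.88 (SE 0.13, limma adjusted p = 0.0214). Ier3, an immediate early gene of cell survival, fell by 0.87 and Myc by 0.78 (limma adjusted p = 0.0232 and 0.0253). Some of the 20 that did not pass were picked after their values were seen, and these went both ways. They were Etv4 at 0.37, Spry4 at 0.07, Dusp6 at 0.05, Dusp5 at -0.14 and Etv5 at -0.21 (limma adjusted p from 0.0938 to 0.784). That pick leaves out the deepest falls among the 20. These were Jun at -0.65, Atf3 at -0.54 and Klf6 at -0.33 (limma adjusted p = 0.0983, 0.109 and 0.119), while Etv4 was the largest rise among the 20. Of all 24 genes, 8 were higher and 16 lower. The list median was -0.10, and -0.14 to -0.05 with 1 array left out. These genes respond to many other signals, and some were already named in an earlier look at these arrays, so the list was not independent of the data.

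**Figure D4:**
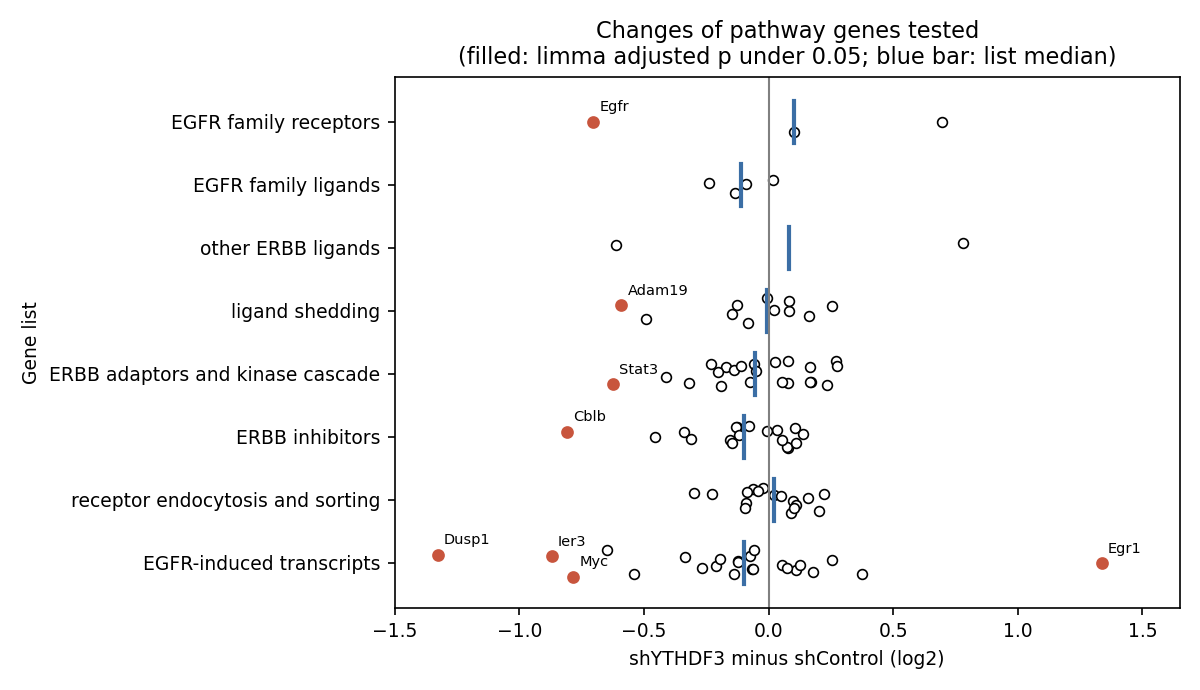
Difference of group means on the log2 scale (horizontal axis, shYTHDF3 minus shControl) of every gene tested in the receptor, ligand and pathway lists (vertical axis); filled, named points passed limma at an adjusted p under 0.05 and blue bars are list medians. The 8 filled points are Egfr, Adam19, Stat3, Cblb, Dusp1, Ier3 and Myc on the lower side and Egr1 on the higher side, and the list medians lie between -0.11 and 0.10.

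The genes whose values followed Egfr most closely were sought among the 13056 genes tested, leaving out those with a gene model, clone or small RNA name. The measure was the Euclidean distance over the 4 arrays after each gene was centred on its own mean. The nearest were Epha4, an ephrin receptor (distance 0.03), Serpinb6b, a serine protease inhibitor with closely similar paralogs that its probes may share (0.05), Nsf, an ATPase of vesicle fusion (0.05), Trmt6, a subunit of a tRNA methyltransferase (0.07), and Acer3, a ceramidase (0.07). Epha4 read 7.03 and 6.83 with shControl and 6.19 and 6.22 with shYTHDF3, lower by 0.72 on the log2 scale. A fall near that of Egfr follows from how these genes were chosen. Serpinb6b missed the threshold (limma adjusted p = 0.0522). The likeness rests on 4 arrays and shares their normalization, and the closeness of these genes to Egfr has no test. Of the genes named here, Dcn alone kept its call when a single array was left out, namely without either shYTHDF3 array (limma adjusted p = 0.0272 without shYTHDF3 1 and 0.0298 without shYTHDF3 2).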

How the data were processed

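Biotin-labelled RNA of 4 samples (2 shControl, 2 shYTHDF3, grouped by title) was read on Affymetrix arrays, as the labels' protocols state. The deposited log2 values were made by the authors with RMA (background correction, normalization and probe set summary), per the submitters' processing notes. Neither the software version nor the log base is given in the sources used here; log2 was taken from the range of the values. RMA evens out the arrays, so a shift of most genes one way would be hidden. Median values were 4.42 and 4.47 in shControl and 4.43 and 4.42 in shYTHDF3; no depth applies, and the number of arrays limits the precision.

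Of 41345 probe sets, the platform annotation gave 23521 a single symbol, 1814 several and 16010 none; 23328 of the first took their current RefSeq symbol by Entrez identifier. A gene took its probe set with the highest mean. Of 22180 genes, 13056 above background were tested and 9124 left out. The comparison used limma 3.58.1 (lmFit and eBayes, default settings) in R 4.3.3, two-sided, and was tested on simulated data. Those data followed limma's own variance model, with planted changes larger than that of Egfr. They cannot show whether the 4 arrays meet that model. Gene coordinates are not given apart from the promoter windows, which are on RefSeq's GRCm38.p6 annotation.

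The members, lists and tests were chosen with earlier results of these data known. Named were the members, the other ERBB ligands and Ythdf3 whatever their values; in each other pathway list the 3 largest rises and 3 largest falls that passed or, if none passed, the 2 largest absolute differences; markers past the threshold; and the 5 properly named genes nearest to a member that passed. Genes outside this rule (Adam10, Adam17, Cbl, Errfi1, Ptprk, Spry2, Dusp5, Dusp6, Etv4, Etv5, Spry4, Jun, Atf3, Klf6 and the other markers) were chosen after their values were seen.

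Alternatives were testing without the filter, setting it at the median probe set, an intensity trend (also with robust estimation), repeated quantile normalization, a common median, the mean of a gene's probe sets, the replicate number as a block, and leaving out each array.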

Additional observations from a re-analysis of the deposited data

How the results depend on the processing

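The count of 356 genes called by limma was 43 without the filter, 1426 with an intensity trend and 1465 with robust estimation as well. With 1 array left out it ran from 0 to 12, while 1786 to 2607 genes had an unadjusted p under 0.05. Receptors called numbered 0 without the filter, 2 with the filter set at the median probe set, with the trend, with robust estimation and with a common median, and 0 with any 1 array left out. The ligands called stayed at 0 under every alternative; by limma at most 1 ligand had an unadjusted p under 0.05 in any of them. Without the filter, which adds genes to the adjustment, the differences of Egfr (-0.70, limma adjusted p = 0.0979) and Ythdf3 (-0.71, 0.0866) missed the threshold. With 1 array left out Egfr ran from -0.82 to -0.59, Ythdf3 from -0.79 to -0.63, and neither passed, with fewer residual degrees of freedom. Erbb3 passed at 0.70 with the filter at the median and with the trend, with or without robust estimation, and at 0.72 with a common median; the cause was not tested. With 1 array left out Ereg ran from -0.30 to 0.12, turning its sign without shControl 2, and Btc from -0.16 to 0.20, turning without shControl 1 (-0.16) and without shYTHDF3 2 (-0.079). Of the genes named, Dcn and Dusp1 alone kept their calls without the filter (limma adjusted p = 0.0128 and 0.0462) and under the replicate block (0.0213 and 0.0489). Nsf and Pdgfra lost their calls with a common median (limma adjusted p = 0.0507 and 0.0508). Erbb2, Hbegf and Tgfa kept their direction and missed the threshold in all 12 alternatives.

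Same-numbered arrays did not deviate together (r = -0.07 over 13056 genes), so the numbers were not taken as pairs. With the replicate number as a block 51 genes passed by limma, with 0 receptors called, Egfr at -0.70 (adjusted p = 0.0859) and Ythdf3 at -0.71 (0.0758). Erbb4, Epgn, Egf, Nrg3 and Nrg4 could be tested only without the filter, where none passed by limma or had an unadjusted p under 0.05. Adam19 was not tested with the mean of its probe sets, which lay below background.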
